A study of Mus with 2 samples.

Results

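The nuclear receptor superfamily, apart from the retinoic acid and retinoid X receptors, was followed through 41 listed genes of the 20060 mouse genes whose transcripts matched a probe of the array. The genes were listed by name from the superfamily. Every one of them had a probe, 57 probes in all, with 1 probe for 27 genes and more than 1 probe for 14 genes. The RNA came from bone marrow-derived macrophages (BMDMs), which are cells grown out of the marrow with macrophage colony-stimulating factor (M-CSF). Male C57BL6/J mice aged 10 weeks gave the marrow, and no genetic change or number of animals was stated. Both cultures received 10 ng/mL M-CSF for 7 days and then 10 ng/mL IL-4 for 24 h, the M2 condition. The control culture also received the vehicle DMSO during those 24 h, and the treated culture received 10 µM GW4064, a synthetic agonist of the bile acid receptor FXR, dissolved in DMSO. Each condition was measured as bulk total RNA on 1 Agilent one-colour array. No difference given here therefore has a replicate error or a test, and all are described by size.

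Nuclear receptors are transcription factors that bind DNA through zinc fingers, and many of them are switched by small lipophilic ligands such as thyroid hormone, steroids, oxysterols, fatty acids and bile acids. FXR, the LXRs, the PPARs, the vitamin D receptor and the thyroid hormone receptors bind DNA mainly with a retinoid X receptor as partner. In macrophages PPARγ and the LXRs are known for the control of lipid uptake and cholesterol efflux, and IL-4 is a known inducer of PPARγ.

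Signals are the background-subtracted brightness of a probe in intensity units of the scanner. Differences are log2 values, GW4064 minus DMSO, after the 75th percentile of each array was set to 0 (signals of 1209 and 1265, DMSO first). A gene counted as detected where the scanner software marked more than 50% of the kept spots of at least 1 of its probes as well above background, and 57.4% of 39200 probes with DMSO and 58.5% with GW4064 carried that mark. Differences of 2-fold or more were counted. The scanner files also hold an error for each signal, called scanner error below, which holds no spread between cultures. For the 10 receptor probes with signals over 1000 on both arrays it was 10% of the signal, so that a difference within the scanner error of 1 such probe is one below 1.15-fold, whereas for dim probes it was larger. For a gene with several detected probes it was taken as the error of their mean, with the probes treated as independent, so it is smaller than that of 1 probe. It was not reduced for printed copies, so Pparg, with 10 copies, keeps the error of 1 spot. Several spots lay in disturbed areas of the arrays, where 2 or more other spots within 300 µm differed by 8-fold or more between the arrays. These areas held 16.5% of the spots, and 12 of the 57 receptor probes had a spot in one.

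The cultures carried macrophage transcripts. All 7 macrophage markers with a probe were well above background on both arrays, with differences between −0.25 and 0.13, and their summed signal, relative to the 75th percentile, was 229 with DMSO and 212 with GW4064. All 6 markers of IL-4 treated macrophages were also measured, and Arg1, the arginase of M2 macrophages, had a signal of 4875 with DMSO and 72297 with GW4064. Mgl2, Retnla and Clec10a were higher by 0.99, 0.91 and 0.84, Chil3 differed by 0.066, and Mrc1 was lower by −0.34. Markers of other cells differed between the arrays as well. Their counts stand beside 48.2% of all genes measured that were lower by any size with GW4064. Of 12 stromal markers, 10 were measured and 8 were lower with GW4064, with a summed level of 31.3 against 17.0. All 6 granulocyte markers with a probe were lower, with a summed level of 11.4 against 7.03. Of 5 dendritic cell markers 3 were measured. Flt3 was at least 4.94-fold higher with a spot in a disturbed area, and Zbtb46 was higher by 0.44. Siglech, by far the brightest of the 3, differed by −0.041, and the summed level was 30.4 against 29.6. Of 4 endothelial markers 3 were measured and all 3 were lower (1.39 against 1.37 summed), and of 7 T and B cell markers 3 were measured, 1 higher and 2 lower (1.28 against 1.17). No marker of these lists was at 0, and 4 of 5 hepatocyte markers were not detected on either array. The part of these cells in the receptor differences was not tested. In bulk RNA, fewer cells of a type and less RNA per cell cannot be told apart.

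Of the 41 receptors, 21 were detected with DMSO and 23 with GW4064. The 23 detected on either array made up 56.1% of the list, against 67.5% of all genes with a probe. The 18 receptors not detected on either array had 24 probes with signals between 3.10 and 18.8. FXR itself was among them. Its only probe (Nr1h4, transcript NM_001163504, printed once) gave a signal of 3.46 with DMSO and 3.24 with GW4064. Neither value passed even the weaker mark of the software for a signal that is positive and significant, and the spot lay in a disturbed area with 4 such neighbours. These arrays therefore give no level of FXR transcript in either culture, which does not show that the transcript was absent.

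**Figure D1:**
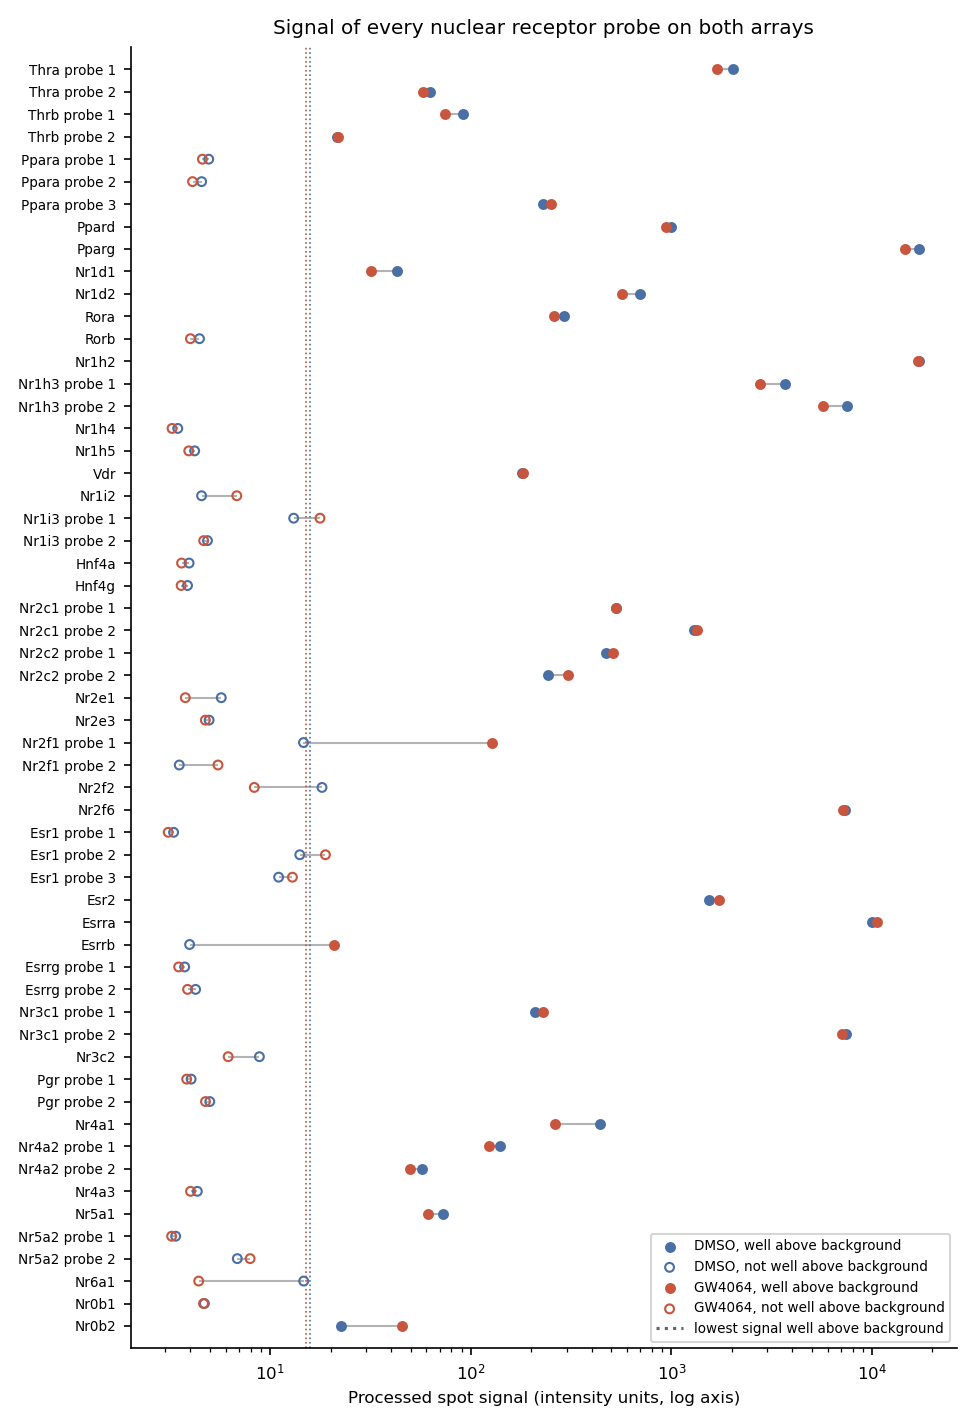
Processed signal (x axis, intensity units, log scale) of each of the 57 probes of the 41 receptors (rows), on the DMSO array (blue) and the GW4064 array (red). Filled circles are signals well above background and open circles are not, and the dotted lines mark the lowest signal well above background on each array (15.7 and 15.1). Only for Nr2f1 and Esrrb does an open DMSO circle stand beside a filled GW4064 circle.

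The other undetected receptors lay across most subfamilies. They were the FXR relative Nr1h5, the xenobiotic receptors Nr1i2 (PXR) and Nr1i3 (CAR), Rorb, the hepatocyte nuclear factors Hnf4a and Hnf4g, the tailless and photoreceptor orphan receptors Nr2e1 and Nr2e3, Nr2f2 (COUP-TFII), Nr3c2 (the mineralocorticoid receptor), Pgr (the progesterone receptor), Esr1 (estrogen receptor α), Esrrg, Nr4a3, Nr5a2 (LRH-1), Nr6a1 and Nr0b1 (DAX1). Most of these signals were at the floor of the arrays, such as 4.20 and 3.92 for Nr1h5 and 3.94 and 3.61 for Hnf4a. The closest to detection was the probe of Esr1 that was printed 10 times, with a mean of 14.03 on DMSO and 18.8 on GW4064. The mark for a signal well above background was carried by 1 of its 9 copies kept for DMSO and by 4 of the 8 kept for GW4064, while the other 2 Esr1 probes were dim on both arrays. With all marked spots kept, Esr1 counted as detected, at 0.72, and 24 receptors were measured. Nr2f2 read 18.1 with DMSO and 8.32 with GW4064, and Nr6a1, the germ cell nuclear factor, read 14.7 and 4.39. None of these 4 values was well above background, so no direction can be read from them.

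Among the 23 receptors detected, 16 were lower with GW4064 by any size and 7 were higher. That is 69.6% lower, against 48.2% of all 13532 genes measured. The differences were small. The median over the 23 receptors was −0.096, with quartiles of −0.29 and 0.038, and the median over all genes was 0.0068, with quartiles of −0.12 and 0.13. At 2-fold, 1 receptor was higher (Nr2f1, known only as a bound), where 2.04% of all genes were 2-fold higher, and 0 were lower, where 2.71% of all genes were. At 1.5-fold, 2 receptors were higher (Nr2f1 and Nr0b2) and 1 was lower (Nr4a1), against 4.39% and 5.56% of all genes. Of the 21 receptors detected on both arrays, Nr4a1, Nr0b2 and Nr1h3 differed by more than 2 times their scanner error. Nr2f1 and Esrrb, known only as bounds, were not part of this count. The share of all genes past that limit is not given here, so the count has nothing to be set against.

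The scaling of the arrays bears on these counts, as do the background correction and the bounds for dim probes. Centred on the spike-in control spots, all values shifted down by 0.17, the median of all genes was −0.17, and 20 of the 23 receptors were lower, but so were 79.7% of all genes. Over all genes the 2-fold split was 276 higher and 367 lower, and it was 218 and 503 with the spike-in centring. After another background correction (normexp) it was 72 and 64. With the deposited table it was 495 and 495, where no bound was used for probes detected on a single array. Ppara, Nr2c2, Esr2 and Esrra, which were slightly higher as scaled here, were lower with the spike-in centring, and Vdr was the other receptor whose sign changed. The remaining 18 kept their sign in every setting that measured them, which was fewer than all 11 for Nr2f1, Nr0b2, Nr4a1 and Esrrb. For Nr2f1 and Esrrb the opposite sign was not possible wherever the bounds were applied. Several settings also leave most genes at the same value or shift it very little, so the settings are not separate checks.

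**Figure D2:**
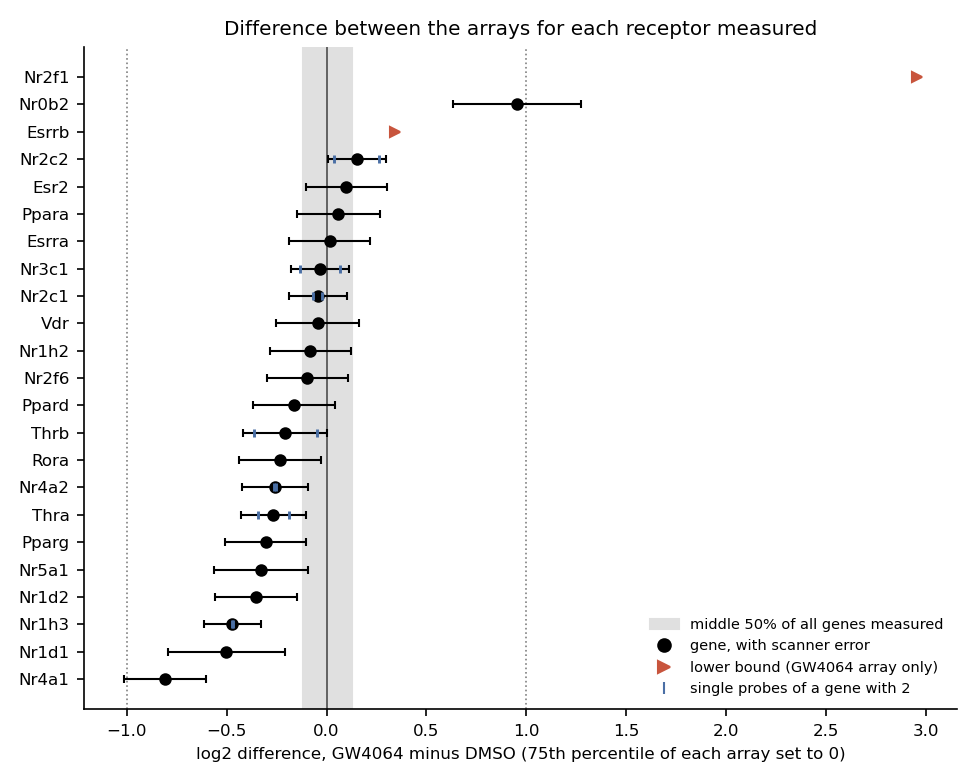
Difference between the arrays (x axis, log2, GW4064 minus DMSO, 75th percentile of each array set to 0) for the 23 receptors detected. Points are genes with their scanner error, blue ticks are the single probes of genes with 2 detected probes, triangles are lower bounds, the grey band holds the middle 50% of all genes measured (−0.12 to 0.13), and the dotted lines mark 2-fold. Nr4a1 is the lowest at −0.81, Nr2f1 is at least 2.96, and Nr2c2, Esr2, Ppara and Esrra, just above 0, turn negative with the spike-in centring.

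The receptors of bile acid and sterol ligands were the first group of interest, because GW4064 is a ligand of one of them. Nr1h3 (LXRα, transcript NM_013839), the oxysterol receptor that drives cholesterol efflux genes in macrophages, was lower with GW4064 at both of its probes. One probe read 3663 with DMSO and 2763 with GW4064, and the other read 7539 and 5697. The differences of the probes were −0.47 and −0.47, so the gene was 1.39-fold lower, with a scanner error of 0.14, and neither spot lay near any spot that differed by 8-fold. Its close relative Nr1h2 (LXRβ), which is expressed in most tissues, read 17153 and 16979, a difference of −0.080 that was within its scanner error of 0.20. Vdr, the vitamin D receptor, read 179 and 182, a difference of −0.045 that ranged from −0.22 (spike-in centring) to 0.00098 over the scalings. No call can be made for FXR, PXR or CAR, which were not detected.

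Nr0b2 encodes SHP, a receptor that lacks a DNA-binding domain, represses other nuclear receptors and is a textbook target gene of FXR in the liver. Its single probe (transcript NM_011850) read 22.5 with DMSO and 45.5 with GW4064, both well above background but low. The difference was 0.95 (1.94-fold higher) with a scanner error of 0.32. It ranged from 0.35 after normexp, which shrinks the differences of dim probes, to 1.03 after quantile normalization, and it stayed positive in all 10 settings that measured it. The spot lay in a disturbed area with 2 such neighbours and no other probe measured the gene, so there was no value outside that area. The other member of its subfamily, Nr0b1, was printed 10 times and averaged 4.69 and 4.65. On the GW4064 array, 1 of its 9 kept copies was well above background.

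The PPARs were all detected. Pparg (PPARγ, transcript NM_011146), the fatty acid receptor of fat cells and alternatively activated macrophages, was the only detected receptor whose probe was printed 10 times. The copies averaged 17234 with DMSO, from 16021 to 18432, and 14600 with GW4064, from 13723 to 15612. The ranges of the copies did not overlap, and all 10 copies were lower with GW4064. The difference was −0.30 (1.24-fold lower), with an SD of 0.063 over the 10 copies, from −0.35 to −0.14. That SD measures the printing and reading of 1 array per condition and not the spread between cultures. Ppard (PPARδ) read 999.9 and 936, a difference of −0.16, within its scanner error of 0.20. Ppara (PPARα) was read by 1 of its 3 probes, at 229 and 250.0, a difference of 0.060 that was −0.11 with the spike-in centring, and its other 2 probes were not well above background.

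**Figure D3:**
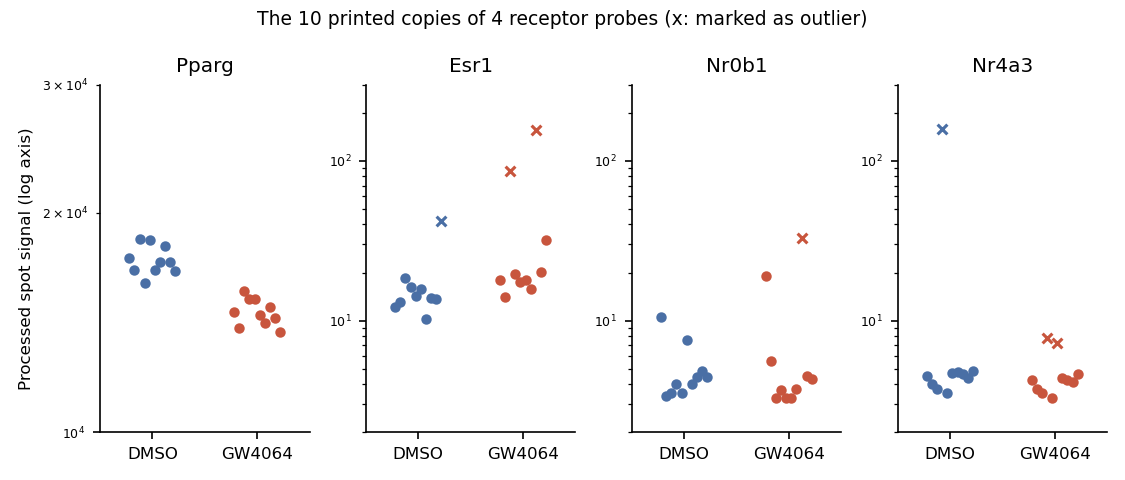
Processed signal (y axis, log scale, a different range for Pparg) of the 10 printed copies of 4 receptor probes on the DMSO array (blue) and the GW4064 array (red), with copies that the scanner software marked as outliers drawn as crosses. The Pparg copies of the arrays do not overlap, at 16021 to 18432 and 13723 to 15612, whereas Esr1, Nr0b1 and Nr4a3 sit near the floor, apart from a few crosses such as a Nr4a3 copy at 158.5.

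The NR4A receptors are orphan immediate early factors, switched on within hours by growth factors, inflammatory stimuli and other signals, and are regulated mainly by their own transcription. Nr4a1 (NUR77, transcript NM_010444) had the largest difference toward lower signal among the receptors, with 439 with DMSO and 262 with GW4064. The difference was −0.81 (1.75-fold lower), with a scanner error of 0.21, and it lay between −0.98 and −0.67 in the 10 settings that measured it. Its only spot lay in a disturbed area with 4 such neighbours, so no value outside it exists for this gene. The median difference of the spots around it was 0.010, which does not show whether this spot is sound. Nr4a2 (NURR1) was lower at both probes by a smaller size, from 140 to 123 and from 57.0 to 49.7, with a gene difference of −0.26. Nr4a3 (NOR1) was at the floor with 4.33 and 4.003. One Nr4a3 copy of 158.5 on the DMSO array was marked as an outlier by the scanner software and left out.

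Immediate early genes were set beside the NR4A receptors, since the same signals induce them. Of 10 listed, 9 were measured, 8 of them lower and 1 higher, with a median of −0.069, and 0 reached 2-fold. Of all genes measured, 48.2% were lower by any size. Fos read 3338 and 2662, a difference of −0.39. Fosb was also lower, at −0.22, and Egr1 was higher, at 0.33 (964 and 1266). The rest lay between −0.11 and −0.0044, so none of the 9 differed by as much as Nr4a1.

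The REV-ERBs, heme-binding repressors of the circadian clock, were both lower. Nr1d1 (REV-ERBα) read 43.0 with DMSO and 31.8 with GW4064, a difference of −0.50 with a scanner error of 0.29 that was −0.13 after normexp. Nr1d2 (REV-ERBβ) read 695 and 570.02, a difference of −0.35 with a scanner error of 0.20, and it stayed between −0.53 and −0.35 in all 11 settings. Rora (RORα), the activator that competes with the REV-ERBs for the same DNA sites, was also lower, from 291 to 259 (−0.23). These receptors showed differences of the same sign, each below 1.5-fold. The clock genes around them lay on both sides of 0. Of 15 listed, 12 were measured, 5 higher and 7 lower, with a median of −0.064 and 0 past 2-fold. Arntl (BMAL1) and Clock, the activating pair of the clock and known targets of REV-ERB and ROR, differed by 0.0081 and 0.016. Bhlhe40 (DEC1) was higher by 0.36 while its relative Bhlhe41 (DEC2) was lower by −0.32, and Cry1 was higher by 0.33 from a low signal of 24.1.

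The thyroid hormone receptors were both detected and slightly lower. Thra (TRα) was lower at both probes, from 2039 to 1681 and from 62.5 to 57.4, with a gene difference of −0.27. The probes of Thrb (TRβ) differed from each other. The first lay in a disturbed area and read 91.5 and 74.4 (−0.37), and the other read 21.5 and 21.8 (−0.050), so the gene difference of −0.21 was −0.050 without the disturbed areas.

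Among the steroid receptors and their relatives, Nr3c1 (the glucocorticoid receptor) read 7403 with DMSO and 7072 with GW4064 at one probe and 208 and 228 at the other. The probes had opposite signs, −0.13 and 0.065, and the gene difference was −0.033. Esr2 (estrogen receptor β) read 1546 and 1733, a difference of 0.10, within its scanner error and −0.074 with the spike-in centring. Esrra (ERRα), an orphan receptor that drives mitochondrial genes, read 10007 and 10585, a difference of 0.015 that was −0.16 with the spike-in centring. Esrrb (ERRβ) read 3.96, not well above background, with DMSO and 20.9 with GW4064, which gives at least 1.27-fold higher, and its only spot lay in a disturbed area with 5 such neighbours.

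The NR2 and NR5 orphan receptors included the largest difference of the list. Nr2f1 (COUP-TFI, transcript NM_010151), a receptor known from neural and mesenchymal development, read 128 with GW4064 and only 14.6 with DMSO, where it was not well above background. It was at least 7.76-fold higher (2.96 on the log2 scale), and 1.32 after normexp, the lowest of the 10 settings that measured it. The spot itself differed by more than 8-fold before the bound was applied (3.06), and no other such spot lay within 300 µm. The median difference of the surrounding spots was 0.080, which does not show whether a single spot is sound. The second Nr2f1 probe was dim in both cultures, at 3.52 and 5.48, so the difference rests on 1 spot of each array. The related Nr2f6 (EAR2) read 7346 and 7195, a difference of −0.096. The testicular receptors Nr2c1 (TR2) and Nr2c2 (TR4) differed by −0.044 and 0.15, and the latter, with both spots in disturbed areas, was −0.023 with the spike-in centring. Nr5a1 (SF-1), the regulator of steroid hormone synthesis, read 73.0 and 60.8, a difference of −0.33 that was −0.0063 after normexp.

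Target genes of the receptors were listed to set beside them. FXR targets, most of them known from liver and intestine, were sparse. Of 12 listed, 11 had a probe and 6 were measured, 3 higher and 3 lower, with 1 gene 2-fold higher and 2 genes 2-fold lower. Sdc1, the syndecan that FXR induces in hepatocytes, read 2163 and 4925, 2.18-fold higher, and was below 2-fold with the spike-in centring (0.95 on the log2 scale). The bile salt export pump Abcb11 read 58.5 with DMSO and 19.5, not well above background, with GW4064. That is 3.15-fold lower by the signals as read and not an "at least" fold. The transporter subunit Slc51b (OSTβ) read 45.3 and 8.72, at least 3.14-fold lower. After normexp these differences were −0.48 and −0.67, so neither gene was past 2-fold. Pltp, the phospholipid transfer protein, differed by −0.23. Abcc2, Slc51a, Fgf15, Fabp6 and Slc27a5 were not detected, and the 6 measured FXR targets, Nr0b2 included, lay on both sides of 0.

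Of 14 LXR targets, 12 were measured, 10 lower and 2 higher, with a median of −0.056 and 0 past 2-fold. Of all genes measured, 48.2% were lower by any size. This list shares Nr1h3 and Pltp with the genes above. The cholesterol exporter Abcg1 read 27623 and 20784 (−0.48) and its partner Abca1 read 8252 and 6603 (−0.39). Mylip, the ligase that degrades the LDL receptor, was lower at both probes, by −0.69 and −0.50. Its gene difference of −0.60 was −0.25 after normexp. The desaturase Scd1 was higher, from 543 to 982 (0.79). Apoe, the apolipoprotein that accepts exported cholesterol, differed by −0.054, and the lipogenic genes Srebf1 and Fasn by −0.039 and 0.013. Lpcat3, Scd2 and Smpdl3a were also close to 0, at −0.036, −0.058 and −0.035. The exporters Abcg5 and Abcg8 were not detected.

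Of 12 PPAR targets, 10 were measured, 4 higher and 6 lower, with a median of −0.049 and 0 past 2-fold. Angptl4, the inhibitor of lipoprotein lipase, read 4733 and 2685 (−0.88, and past 2-fold at −1.06 with the spike-in centring), and Pdk4, the kinase that limits glucose oxidation, read 87.2 and 61.2 (−0.58, in a disturbed area). Cpt1a, the carnitine palmitoyltransferase of the outer mitochondrial membrane, was lower by −0.46. The oxidized LDL receptor Olr1 was higher, from 74.3 to 118 (0.60). Fabp4, Cd36 and Plin2, the targets most often used to follow PPARγ in macrophages, differed by 0.085, 0.023 and 0.0059. Cidec, a lipid droplet protein not detected otherwise, was at −1.62 when all marked spots were kept.

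Of 9 glucocorticoid receptor targets, 8 were measured, 3 higher and 5 lower, with a median of −0.046. Mt2, a metallothionein that also responds to metals, was the only one past 2-fold, from 15584 to 39626 (2.43-fold higher). Tsc22d3 (GILZ) read 4469 and 2990 (−0.65, in a disturbed area) and the phosphatase Dusp1 read 3203 and 2208 (−0.60). Fkbp5, a chaperone of the receptor, and the clock gene Per1 differed by −0.047 and −0.044.

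**Figure D4:**
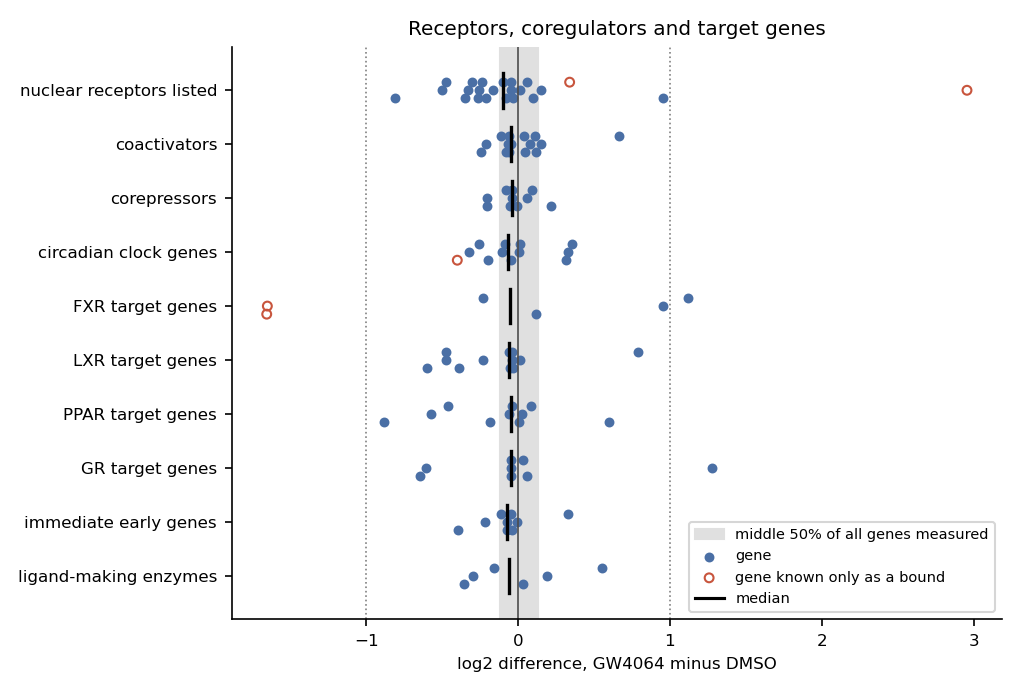
Difference between the arrays (x axis, log2, GW4064 minus DMSO) for the receptors and 9 lists of coregulators, target genes and related genes (rows, jittered vertically). Blue points are genes, open red circles are genes known only as a bound, black bars are medians, the grey band holds the middle 50% of all genes measured and the dotted lines mark 2-fold. Every list has a median between −0.096 and −0.041 as scaled here, with single genes far outside the band on both sides.

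The coregulators that receptors recruit differed little. Of 16 coactivators, 15 were measured, 7 higher and 8 lower, with a median of −0.044 and 0 past 2-fold. The histone acetyltransferase Crebbp (CBP) and the p160 coactivator Ncoa2 differed by −0.24 and −0.21. Ncoa7, an estrogen receptor coactivator, had a mean of 0.67 over probes of 0.25 and 1.09, and it was 0.25 without the disturbed areas. Of 10 corepressors, all 10 were measured, 3 higher and 7 lower, with a median of −0.041 and 0 past 2-fold. Sin3b differed by −0.21 over probes that disagreed (−0.41 and −0.0010), and Lcor by 0.21, which was −0.085 after normexp.

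Enzymes that make or remove the ligands were detected in part. Of 12 listed, 6 were measured, 3 higher and 3 lower, with a median of −0.061 and 0 past 2-fold. Dio2, the deiodinase that activates thyroid hormone, was higher, from 384 to 588 (0.55). Dio1 was detected at 1 of its 3 probes, with low signals of 28.8 and 24.6. It differed by −0.29, which was −0.064 after normexp. Cyp27a1, which makes the LXR ligand 27-hydroxycholesterol, was lower by −0.35, and Ch25h, the 25-hydroxylase, differed by 0.19. The vitamin D enzymes Cyp27b1 and Cyp24a1, the bile acid enzyme Cyp7a1 and the aromatase Cyp19a1 were not detected on either array.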

How the data were processed

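Cy3-labelled cRNA of 1 DMSO and 1 GW4064 culture was hybridised to 1 Agilent 44K array each, and the authors read them with Agilent Feature Extraction 10.7.1.1. The deposited scanner files hold an intensity for each of 43020 spots, background-subtracted and corrected for spatial trends by that software, and deposited marks for spots well above background, outliers and saturation. The authors' deposited log2 table gave the same differences (constant of 0.0022, largest deviation 2.8e-06 over 39200 probes), so its log2 scale and direction are settled, while its centring (medians of 0.035 and −0.051) is not given in the sources used here. The build of the array design (mm9) differs from that of the RefSeq table used for names, so no coordinates are given.

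Groups came from the title and treatment labels, although a description field of the GW4064 sample repeats the DMSO wording. Spots marked as non-uniform or as outliers were left out (399 and 207), and 0 spots were saturated. Copies were averaged (SD over copies of a detected probe, 0.077), log2 signals were taken relative to the 75th percentile, and probes were named by transcript accession (26445 matched). A gene is the mean of those of its probes that either array showed well above background. Where a probe passed on 1 array only, the other was set to the higher of its own signal and the lowest signal well above background (15.7 or 15.1), which gives an "at least" fold. Where its own signal was the higher, as for Abcb11, the fold is that of the signals as read. Precision is limited by the number of arrays.

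Every listed receptor was named. Of each pathway list the genes past 2-fold and the 3 largest differences among those detected on both arrays were named, except for a gene that is not reported here, and other genes were chosen after their values were seen. The members and lists were chosen with earlier results of these data known. The code was tested on simulated data for GW4064 against DMSO, where 199 of 200 probes planted at 4-fold among 21806 were recovered with 0 false calls. Only probes well above background on both arrays were simulated, with noise far below the 2-fold threshold and no disturbed areas. The simulation therefore checks the code, and not how reliable the calls of dim or disturbed spots are. Analyses used Python 3.11.15, numpy 2.4.6, pandas 2.3.3, statsmodels 0.14.6, R 4.3.3 and limma 3.58.1. Alternatives were quantile, median, spike-in and loess (span 0.3) scaling, normexp (offset 50), the deposited table, other spot and probe filters, the brightest probe and a 1.5-fold threshold.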

Additional observations from a re-analysis of the deposited data

How the results depend on the processing

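No paired analysis was possible because a single array stands for each culture. For the same reason no array could be left out, and no setting gives a replicate error. Of the 23 receptors measured, 18 kept their sign in all settings that measured them, as did 27 of 28 other named genes (the exception was Lcor). These counts were in part fixed in advance. The values of Nr2f1, Esrrb, Abcb11 and Slc51b could not take the opposite sign wherever the bounds were applied. Several settings, such as the deposited table and the brightest probe, leave most genes at or close to the same value. The count of receptors 2-fold higher was 1 and became 2 with quantile normalization (Nr0b2 added), in the deposited table and without the filter on dim probes (Esrrb added, since no bound was used there), 2 at a 1.5-fold threshold and 0 over probes detected on both arrays, which leaves out Nr2f1. The count of receptors 2-fold lower was 0 and became 2 without the filter (Nr2f2 and Nr6a1, neither of them detected) and 1 at 1.5-fold (Nr4a1). Genes of all pathway lists together were 2 higher and 2 lower. The higher count became 1 with the spike-in centring (Sdc1 lost), 4 without the filter and 6 at 1.5-fold. The lower count became 0 with normexp (Abcb11 and Slc51b lost), 0 over probes detected on both arrays and 6 at 1.5-fold, and it was 3 with the spike-in centring (Angptl4 added) and 3 with all spots kept (Cidec added). The median over receptors was −0.27 with the spike-in centring, which shifts all genes. A looser rule asked for the weaker mark of a positive and significant signal on any spot of a gene, outlier spots included. By that rule 32 receptors in place of 21 counted as detected on the DMSO array. Without the disturbed areas, 19 receptors were measured and 15 of them were lower, and Nr4a1, Nr0b2, Nr2c2 and Esrrb had no value. Signal over background limits Nr2f1, Esrrb, Nr0b2, Nr1d1 and Nr5a1, whose differences shrank under normexp.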
